A study of Schizosaccharomyces pombe with 20 samples.

Results

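The introns described here are those of fission yeast (Schizosaccharomyces pombe) genes that hold a single intron. They were chosen from the probe names of a splicing-sensitive microarray, as the intron probes of genes whose highest intron number, and highest number of consecutive exon–exon junctions, was 1. That rule gave 1065 introns among the 4885 intron probes of the array, against 3820 introns of other genes, and it used no measured value. A junction probe was paired with 1007 of the 1065 introns and an exon probe with 1038, and 983 had both. Probe names were matched to a gene in the RefSeq gene table (assembly ASM294v3) for 965 members, of which 433 lie on chromosome I, 369 on chromosome II and 163 on chromosome III. A prefix n stood before the gene name of 46 members and a prefix m before that of 1, whose meaning no source used here gives. For 8 of the members with prefix n, the same name without the n had an intron probe of its own, so such a gene may hold a further intron.

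The spliceosome removes an intron by recognising its 5′ splice site, its branch point and its 3′ splice site. Introns of fission yeast are mostly short, and many genes of this organism hold several of them. In a gene with a single intron, retention of that intron alone separates the pre-mRNA from the mature mRNA, and no internal exon can be skipped. No probe for a skipping junction belonged to a member gene.

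RNA of 12 haploid deletion strains of the Bioneer library, each with a KanR marker in place of the named gene, was compared with RNA of the Bioneer wild-type strain ED666 on 20 arrays with 2 dyes. On every array Cy3 marked the deletion strain and Cy5 the wild type, without a dye swap. Cultures were grown in 25 mL of YES medium to an optical density of about 0.5. Separately grown cultures gave a pair of arrays for 8 strains, which were Δsmd3, Δpwi1, Δaar2, Δctr1, Δssu72, Δppn1, ΔSPAC18G6.13 and ΔSPAC20H4.06c. The strains Δpht1, Δswd1, Δash2 and ΔSPCC162.01c had 1 array each. The products of smd3, aar2 and pwi1 are known splicing factors, those of SPAC20H4.06c and SPCC162.01c are predicted ones, Ctr1 and the product of SPAC18G6.13 were purified with complexes of nuclear RNA decay, Ppn1 and Ssu72 act in 3′ end processing, Ash2 and Swd1 belong to the Set1 histone methylation complex, and pht1 encodes the histone variant H2A.Z.

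The exon probe of the deleted gene was lower than on every array of the other strains on 14 of the 20 arrays. It was not on either array labelled Δsmd3, where it read -0.50 and -0.93, on either array labelled ΔSPAC18G6.13, where it read -0.41 and -0.26, on the array labelled ΔSPCC162.01c, where it read 0.59, or on replicate 2 labelled Δctr1, where it read -0.86 against -4.71 on replicate 1. The strains Δsmd3, Δctr1, ΔSPAC18G6.13 and ΔSPCC162.01c are therefore called by their label, and where a probe lies relative to the deleted stretch was not analysed here. The gene ssu72 is itself a member. On the Δssu72 arrays its junction probe read -3.01 and -3.49 and its intron probe had no value, while the other strains' arrays had a median of -0.68 for its junction.

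An intron that the study screened by sequencing, fet5_intron1, is a member. The gene fet5 (SPAC4D7.12c, chromosome I) encodes a GTPase. The gene-specific parts of the study's screening primers, which lie on either side of this intron, show which stretch of the transcript was followed there. The capitals mark the whole gene-specific part, and the antisense stretch was shared by 24 barcoded primers.
fet5 sense primer: ACCCAAAGTTTCACGAACTTAATC
fet5 antisense primer: GGAAGGAAATTGACCATATTAAAGTC

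The arrays hold an intron probe for pre-mRNA, a junction probe for mature mRNA and an exon probe for total mRNA. Each deposited value is a log2 ratio with the deletion strain on top, and depth has no meaning for such values, so that the number of arrays limits the precision. Pre-mRNA relative to mature mRNA is the intron value minus the junction value of an array, on the log2 scale. It is called the ratio below, and a value above 0 means more pre-mRNA per mature mRNA in the deletion strain than in the wild type. Strain means were tested with limma for a difference from 0, with Benjamini–Hochberg adjustment over all introns of the array tested in that strain, and "rose" or "fell" is used for an adjusted p under 0.05. Each SE given below rests on a spread fitted over all strains for that intron or probe. It does not measure the distance between the arrays of the pair it stands beside.

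Whether a member could be measured varied widely between arrays. Values were present for 19.7% to 99.7% of the members' intron probes, against 13.6% to 99.3% of the probes for introns of other genes, with the lowest share on the Δpht1 array and the highest on the array labelled ΔSPCC162.01c. The share was higher for the members on 19 of 20 arrays, by a median of 5.58 percentage points. A ratio was available on all 20 arrays for 78 members and on none for 76, and 984 members were tested in at least 1 strain. Of these, the ratio rose in at least 1 strain for 340 (34.6%, against 29.8% of other introns and 30.8% of all) and fell for 6 (0.61%, against 0.948% of other introns and 0.875% of all).

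The ratio of the members was above 0 in the median on every array. Each median and share rests on the members measured there, a different subset of the 1065 on each array. It rested on 149 members on the Δpht1 array, with a median of 0.42. On the array labelled ΔSPCC162.01c it rested on 980, with a median of 0.12. Per array the median ran between 0.09 and 1.15 for the members and between 0.10 and 0.93 for introns of other genes. It was higher for the members on 15 of 20 arrays, and the difference ran between -0.08 and 0.21. The arrays of the label Δctr1 differed most from each other. The members' median was 1.15 on replicate 1 and 0.09 on replicate 2, which is the array where ctr1 itself was not clearly low.

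**Figure D1:**
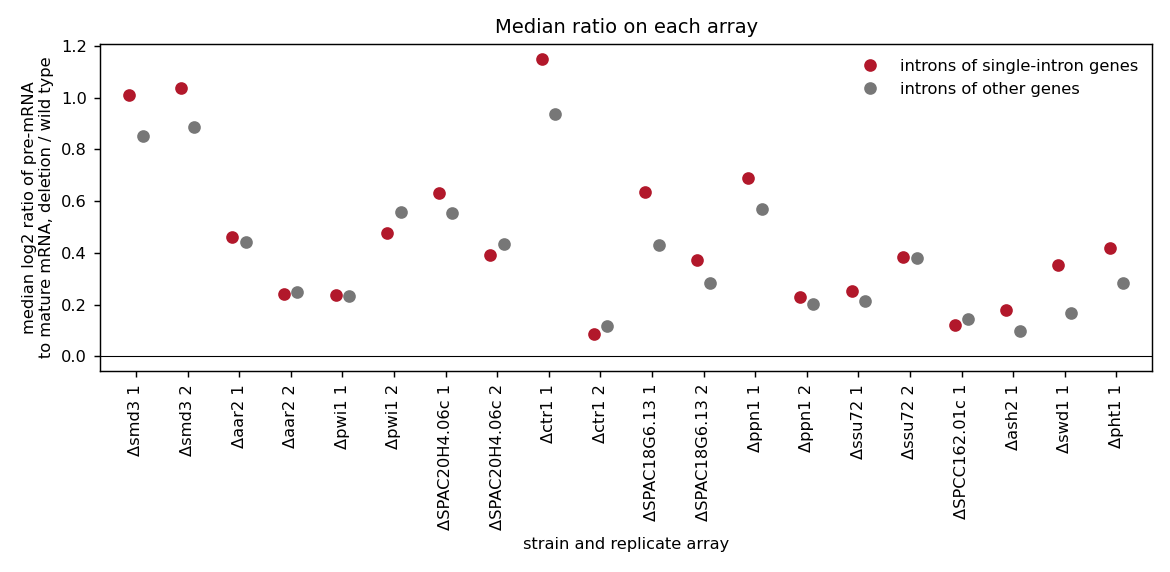
Median log2 ratio of pre-mRNA to mature mRNA (y axis) on each of the 20 arrays (x axis, strain and replicate), for introns of single-intron genes (red, left) and introns of other genes (grey, right). The red points lie above the grey ones on 15 of 20 arrays, and all points lie above 0.

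On the arrays labelled Δsmd3, which name a core protein of the spliceosomal snRNPs, the ratio rose for 279 of 430 members tested and fell for 0. That is 64.9% of the members, against 60.6% of the introns of other genes, where all introns together gave 61.6% up and 0.217% down. The median ratio was 1.11 for the members and 1.01 for introns of other genes. Among introns with a ratio on all 20 arrays the difference between these medians turned to -0.03, and it also turned below 0 under the label Δctr1, in ΔSPAC20H4.06c and in Δash2. No test of the difference between members and other introns was made, in this strain or the others.

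In the deletion of aar2, a factor of the U5 snRNP, the ratio rose for 17 of 602 members (2.82%, against 3.91% of other introns and 3.67% of all introns tested) and fell for 0 (0.0357% of all), with a median of 0.37 for the members and 0.37 for other introns. In the deletion of the splicing coactivator pwi1, it rose for 36 of 371 members and fell for 1 (9.7%, against 16.1% of other introns and 14.6% of all, of which 0.184% fell). The members' median was 0.37 in Δpwi1, against 0.42 for other introns. In ΔSPAC20H4.06c, the deletion of an RNA-binding protein, it rose for 32 of 219 members and fell for 1 (14.6%, against 17.7% of other introns and 16.9% of all, of which 0.116% fell), with a median of 0.56 for the members and 0.53 for other introns. In these strains the members' share past the test was below that of all introns. The counts themselves moved widely with the fit. Without the 6 arrays of doubtful label they were 144 in Δaar2, 104 in Δpwi1 and 87 in ΔSPAC20H4.06c, and with the exon probe as denominator they were 0, 13 and 16 in the same order. With that denominator the shares were 0.0%, 3.3% and 6.61% of members, against 0.0%, 7.06% and 6.74% of all introns. For the fit without the doubtful arrays the share of all introns is not given here, so the counts do not show whether the order of the shares held. For Δaar2 trend and robust estimation also gave 0.

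In the other strains with a pair of arrays the members' share by the junction ratio lay above that of all introns or was 0. The ratio rose for 92 of 362 members under the label Δctr1 (25.4%, against 22.3% of other introns and 23.0% of all) and fell for 3 (0.994% of all). On replicate 1, the array of that pair where ctr1 was clearly low, the median ratio was 1.15 for the members and 0.93 for other introns. The ratio was above 0 there for 83.1% of members and 80.2% of other introns. The order of the shares turned for this pair with the exon probe as denominator, where 31 of 395 members rose (7.85%, against 8.27% of all introns). On the arrays labelled ΔSPAC18G6.13 it rose for 127 of 387 members (32.8%, against 27.0% of other introns and 28.4% of all) and fell for 3 (1.22% of all). The members' median was 0.56 there, against 0.41 for other introns. In Δppn1 it rose for 51 of 292 members (17.5%, against 13.8% of other introns and 14.7% of all) and fell for 0 (0.258% of all). In Δssu72 the limma test called 0 of 328 members and 0.0% of all introns, with 42 members above 0 (12.8%, against 14.0% of all) and 7 below 0 (2.13%, against 1.26% of all) at an unadjusted p under 0.05, and the median ratio was 0.28 for the members and 0.28 for other introns.

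These counts rest on both arrays of a pair. The number of members tested changes when an array is left out, as under the label Δctr1 from 362 to 456 without replicate 2. The share of all introns under these fits is not given here, so the counts below do not compare members with other introns. With 1 of the arrays left out, and the remaining array assumed to vary like the other strains, the count of members whose ratio rose was 259 without Δsmd3 replicate 1 and 192 without replicate 2. It was 0 without either array of Δaar2 or of ΔSPAC20H4.06c. For Δpwi1 it was 1 without replicate 1 and 4 without replicate 2, for the label ΔSPAC18G6.13 0 and 51, and for Δppn1 0 and 11 in the same order. For the label Δctr1 it was 0 without replicate 1 and 261 without replicate 2. Medians differed between the arrays of a pair too. In Δpwi1 the members' median was 0.24 on replicate 1 and 0.48 on replicate 2, against 0.23 and 0.56 for other introns, and in Δppn1 it was 0.69 and 0.23, against 0.57 and 0.20. The difference between members and other introns was above 0 on one array and below 0 on the other in Δpwi1, Δaar2, ΔSPAC20H4.06c and under the label Δctr1.

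The 4 strains with 1 array gave few calls at all. The limma test called 0 of 980 members on the array labelled ΔSPCC162.01c, 0 of 493 in Δash2, 0 of 318 in Δswd1 and 0 of 149 in Δpht1. Over all introns 0.54% rose in Δpht1 and 0.0% in the other 3. At an unadjusted p under 0.05, 31 members were above 0 on the array labelled ΔSPCC162.01c (3.16%, against 2.18% of all introns), 17 in Δash2 (3.45%, against 2.69%), 29 in Δswd1 (9.12%, against 5.96%) and 14 in Δpht1 (9.4%, against 13.1%). Below 0 there were 11 (1.12%, against 0.484% of all), 10 (2.03%, against 1.7%), 5 (1.57%, against 1.47%) and 4 (2.68%, against 2.34%) in the same order. The members' median ratio was 0.35 in Δswd1 and 0.42 in Δpht1, against 0.17 and 0.28 for other introns.

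The members were also set beside introns of genes grouped by their number of introns. The members' median ratio was higher than that of introns in genes with 6 or more introns in 11 of 12 strains, and higher than that of first introns in genes with 2 to 5 introns in 11 of 12 strains. The exception was Δpwi1 in both comparisons, and against all other introns the members' median was higher in 8 of 12 strains. On the arrays labelled Δsmd3 the share that rose was 64.9% of members, 62.7% of first introns and 49.1% of introns in genes with 6 or more. On those labelled ΔSPAC18G6.13 it was 32.8%, 25.8% and 20.8%. In Δpwi1 it was 9.7% of members and 15.9% of introns in genes with 6 or more. By the intron probe alone, the members' median was higher than that of introns in genes with 6 or more in 7 of 12 strains. It was higher than that of first introns in 11 of 12. Under the label Δctr1 the intron probe rose for 22.6% of members and 27.9% of introns in genes with 6 or more, while the ratio rose for 25.4% and 14.0%.

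**Figure D2:**
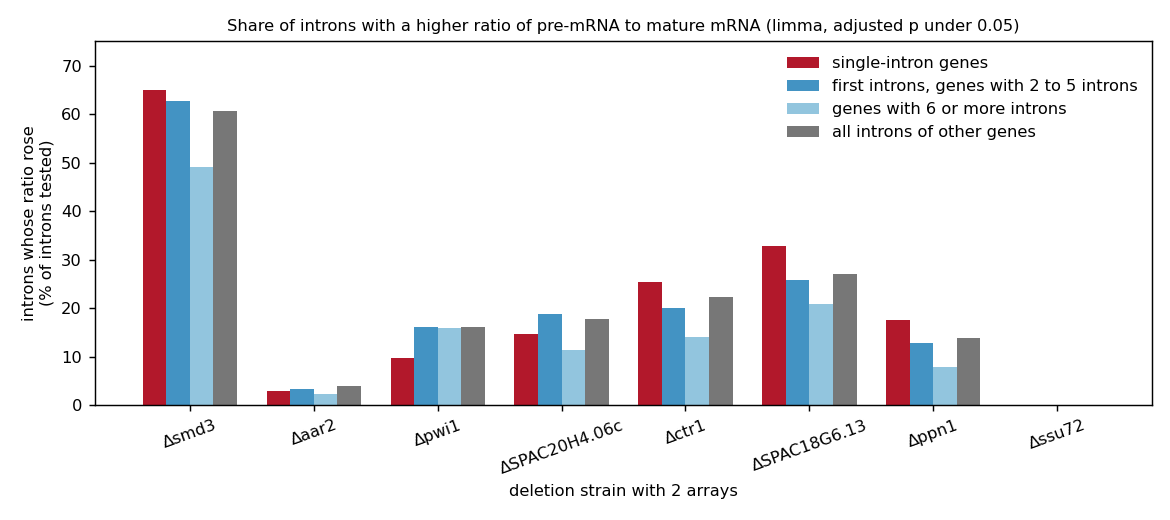
Share of introns whose pre-mRNA rose relative to mature mRNA (y axis, percent of introns tested, limma adjusted p under 0.05) in the 8 strains with 2 arrays (x axis), for introns of single-intron genes (red), first introns of genes with 2 to 5 introns (dark blue), introns of genes with 6 or more introns (light blue) and all introns of other genes (grey). The red bar is the lowest of the group in Δpwi1, at 9.7%, and the highest in the strains labelled Δsmd3, Δctr1, ΔSPAC18G6.13 and Δppn1.

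The pre-mRNA and the mature mRNA contributed unequally. On the arrays labelled Δsmd3 the intron probe rose for 277 of 520 members (53.3%, where 50.0% of all introns rose), and the junction probe fell for 175 of 858 members (20.4%, where 20.9% of all junctions fell). Both changes were called together for 58 of the 430 members with a ratio (13.5%, against 14.7% of other introns and 14.4% of all). The intron probe alone was called up for 179 members (41.6%, against 37.0% of other introns) and the junction probe alone down for 44 (10.2%, against 9.7%).

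Under the labels Δctr1 and ΔSPAC18G6.13 and in Δppn1 more members were called in the intron probe than in the junction probe. The intron probe rose for 104 of 460 members under the label Δctr1, where 23.7% of all introns rose. It rose for 124 of 473 members on the arrays labelled ΔSPAC18G6.13, where 23.5% of all introns rose, and for 63 of 368 in Δppn1, where 15.2% did. The junction probe fell for 31 of 865 members under the label Δctr1 (1.65% of all junctions), for 22 of 878 under the label ΔSPAC18G6.13 (2.48% of all) and for 34 of 836 in Δppn1 (2.99% of all). Intron up and junction down were called together for 1 of 362 members under the label Δctr1 (0.0622% of all introns), 7 of 387 under the label ΔSPAC18G6.13 (1.47% of all) and 0 of 292 in Δppn1 (0.0859% of all). Δpht1 and Δswd1 had 1 array each, so that their calls have no replicate and take the spread from the other strains. In Δpht1 the junction fell for 34 of 787 members (4.55% of all junctions) and the intron rose for 3 of 210 (1.92% of all introns), and in Δswd1 the junction fell for 5 of 882 (0.378% of all) and the intron rose for 0 of 394 (0.0% of all).

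In Δpwi1 the members' pre-mRNA stood lower than that of other introns. The median intron value was 0.20 for the members and 0.34 for introns of other genes, and 28 of 446 members rose, against 184 of 1420 other introns (11.4% of all introns). The members' intron median was also lower in Δaar2, ΔSPAC20H4.06c, Δssu72 and under the labels Δctr1 and ΔSPCC162.01c. It was higher than that of other introns in 6 of 12 strains, and per array on 11 of 20 arrays. The junction probe was lower for members than for other genes' junctions in every strain in the median, with differences between -0.10 and -0.01. Per array, the junction median was lower for members on 19 of 20 arrays. The exon median of member genes was also lower than that of other genes in 12 of 12 strains, with differences between -0.11 and -0.04.

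The exon probe, for total mRNA, was called for few genes of the array as a whole, and the members whose ratio rose are set beside that share here. For the 254 members with an exon value whose ratio rose on the arrays labelled Δsmd3, the median exon value was -0.07, and the exon probe rose for 7 and fell for 9, where 2.22% of all exon probes rose and 1.66% fell. For the 143 members not called up there, it was 0.03. Of the 118 members that rose under the label ΔSPAC18G6.13, the exon probe rose for 0 and fell for 3 (0.75% and 0.814% of all). Under the label Δctr1 it rose for 0 and fell for 2 of 83 (2.86% and 2.02% of all), and in Δppn1 it rose for 0 and fell for 0 of 44 (1.83% and 1.42% of all). The exon probe lay in exon 1 for 237 members and in exon 2 for 801, and the median ratio in labelled Δsmd3 was 1.06 and 1.11 for these groups. That ratio does not use the exon probe. The intron value minus the exon value had medians of 0.60 and 0.81 there and rose for 34 of 93 and 190 of 375 members (43.9% of all introns). In Δpwi1 its medians were 0.32 and 0.26, in the opposite order.

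The ratio of fet5 was above 0 on each of the 13 arrays that measured it. It read 1.61 and 3.46 on the arrays labelled Δsmd3, 2.19 and 0.60 under the label Δctr1, and 1.73 and 1.82 under the label ΔSPAC18G6.13. It rose in these, by 2.53 ± 0.42 (SE, n = 2 arrays, limma adjusted p = 0.000333), 1.39 ± 0.42 (adjusted p = 0.0381) and 1.78 ± 0.42 (adjusted p = 0.0081). The call of the label Δsmd3 held with either array left out. The call of the label Δctr1 was lost without replicate 1, at 0.60, and that of the label ΔSPAC18G6.13 was lost with either array left out. The call of the label Δctr1 was also lost with the exon probe as denominator, at 1.27 (limma adjusted p = 0.0702), and the other 2 held.

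In Δaar2 and Δpwi1 the ratio of fet5 was lower and did not pass the test. It read 1.14 and 0.96 in Δaar2 (adjusted p = 0.155) and 0.76 and 1.07 in Δpwi1 (adjusted p = 0.167). The array labelled ΔSPCC162.01c gave 0.35, the lowest of all. In the called strains the intron probe of fet5 rose too and the junction probe did not pass the test. The intron probe read 1.48 and 3.33 on the arrays labelled Δsmd3 beside junction values of -0.13 and -0.12 and exon values of 0.27 and 0.06.

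The members whose ratio rose in the most strains were SPAC29A4.02c and scs2, in 7 each. The product of scs2 is an endoplasmic reticulum membrane protein of the VAP family. Its ratio read 2.26 and 1.52 in Δaar2, 2.11 and 1.83 in Δpwi1, 2.94 and 0.71 under the label Δctr1 and 2.11 and 1.30 in Δppn1. It read 1.02 and 2.99 on the arrays labelled Δsmd3 and 0.67 and -0.14 in Δssu72. The arrays of Δaar2, Δpwi1, Δppn1 and the label Δctr1 all lay above both Δssu72 arrays, and the pair labelled Δsmd3 differed by more than most pairs. The increase was in the intron probe, which was above 0 on all 20 arrays and read 1.96 and 1.54 in Δaar2, with junction values of -0.31 and 0.02. With 1 array of a pair left out, the call of scs2 held without replicate 1 of the label Δsmd3 and without replicate 2 of the label Δctr1, and was lost otherwise. The calls of scs2 in Δaar2 (limma adjusted p = 0.106), ΔSPAC20H4.06c (adjusted p = 0.0694) and Δppn1 (adjusted p = 0.057) were lost with the exon probe as denominator, and the pair labelled Δctr1 could not be tested.

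The ratio of SPAC29A4.02c read 2.13 and 2.04 in Δppn1, 2.13 and 2.24 under the label ΔSPAC18G6.13 and 1.32 and 1.33 in Δaar2. These pairs lay close together. It rose by 2.09 ± 0.32 in Δppn1 (SE, n = 2 arrays, limma adjusted p = 0.00447), the largest rise among the members there, and the call was lost without replicate 1. The array labelled ΔSPCC162.01c was the only one below 0, at -2.15, with an intron value of -1.0 and a junction value of 1.14.

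The ratio rose in 6 strains for mcp7, rib4, tos4, cdc31 and rpl35, and in 5 for 8 further members, of which SPAC56E4.08c, rps502, erg5 and gdt2 are named here. Rib4 acts in riboflavin synthesis, and its ratio was above 0 on all 20 arrays, between 0.48 and 2.85. The centrin Cdc31 of the spindle pole body gave 0.16 to 2.38, and the ribosomal protein gene rpl35 0.01 to 2.88 on 19 arrays. For these 3 genes the lowest value came from strains other than those whose ratio rose. For erg5, which encodes an enzyme of ergosterol synthesis, the ratio read 2.21 and 2.21 under the label ΔSPAC18G6.13 and 0.09 and -0.37 in Δssu72.

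**Figure D3:**
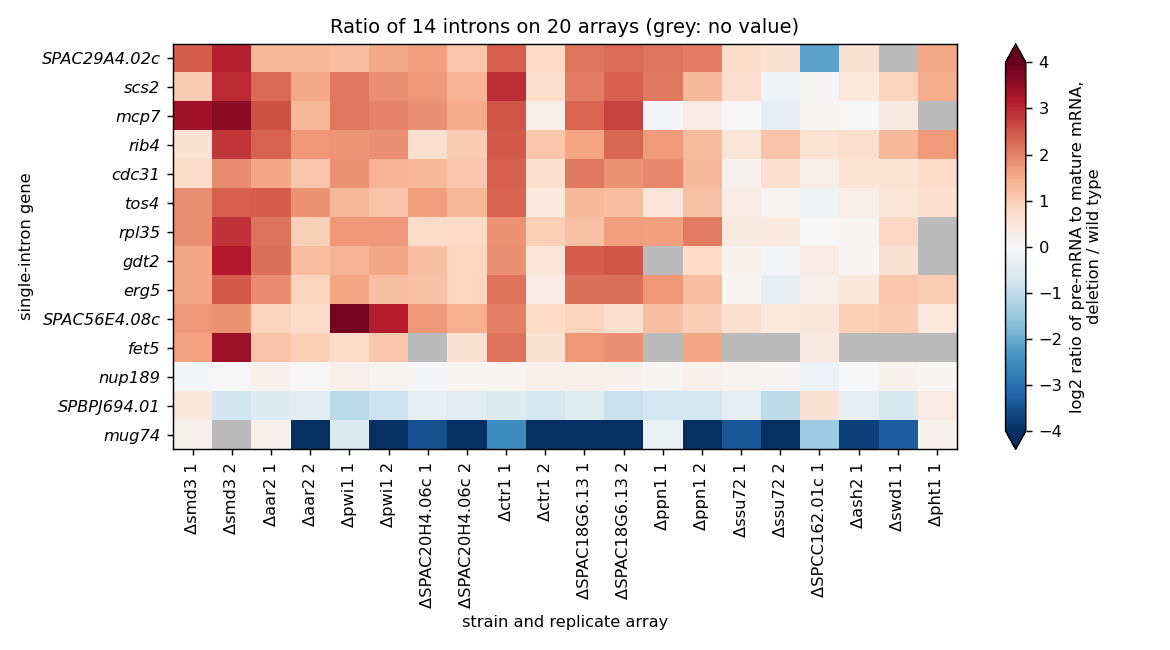
Log2 ratio of pre-mRNA to mature mRNA (colour, red above 0 and blue below, limited at 4 and -4) of 14 introns of single-intron genes (rows) on 20 arrays (columns, strain and replicate), with grey where no ratio was available. The 10 upper rows are the members that rose in 6 or 7 strains and, of the 8 that rose in 5, the 3 with the highest mean over strains, and nup189 stays near 0 on all arrays, while mug74 is below -3 on most.

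Whether a ratio differed between strains was tested with the limma F test over the 8 strains with a pair of arrays. It could be run on 435 introns measured on all 16 arrays of these strains, and 19.1% of them differed. Of the members, 20 of 122 differed (16.4%), against 63 of 313 introns of other genes (20.1%). Among the members named here these were SPAC56E4.08c, mcp7, mdm35, pcf11 and rps502.

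SPAC56E4.08c was most affected in Δpwi1. Its ratio read 3.83 and 3.14 there, against 1.72 and 1.80 on the arrays labelled Δsmd3, 1.73 and 1.41 in ΔSPAC20H4.06c, 0.89 and 0.74 in Δaar2 and 0.65 and 0.43 in Δssu72. Both Δpwi1 arrays lay above all other arrays. The rise was 3.48 ± 0.29 in Δpwi1 (SE, n = 2 arrays, limma adjusted p = 1.02e-06), and it was 2.50 and still past the test after subtracting the mean over the other strains. It also held with either array left out. Pre-mRNA made up the difference, with intron values of 3.12 and 3.07 in Δpwi1, junction values of -0.71 and -0.07, and exon values of 0.71 and 0.64.

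The ratio of mcp7, a gene for a meiotic recombination protein, differed between the strains. It read 3.35 and 3.60 on the arrays labelled Δsmd3, 2.31 and 2.71 under the label ΔSPAC18G6.13, 2.11 and 1.98 in Δpwi1, 2.55 and 1.33 in Δaar2 and 1.82 and 1.49 in ΔSPAC20H4.06c. In the strains of 3′ end processing factors it read -0.04 and 0.33 in Δppn1 and 0.02 and -0.35 in Δssu72. The single arrays of Δash2, Δswd1 and the label ΔSPCC162.01c were also low, at 0.02, 0.36 and 0.08. These groups of strains were formed by the values themselves, so the gap between them is no test. The label Δctr1 fell on both sides with 2.52 on replicate 1 and 0.23 on replicate 2. With either array left out, the call held under the label Δsmd3, and it was lost in Δaar2, Δpwi1 and ΔSPAC20H4.06c.

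On the arrays labelled Δsmd3 and ΔSPAC18G6.13 the junction and exon probes of mcp7 moved more than its intron probe. The junction read -3.07 and -2.80 on the arrays labelled Δsmd3 and fell by 2.94 ± 0.34 (SE, n = 2 arrays, limma adjusted p = 0.000225). The exon probe read -1.84 and -1.49 there and fell by 1.66 ± 0.22 (adjusted p = 0.00398), while the intron probe read 0.28 and 0.80 (adjusted p = 0.0673). Under the label ΔSPAC18G6.13 the junction fell by 2.34 ± 0.34 (adjusted p = 0.00355) and the exon by 1.37 ± 0.22 (adjusted p = 0.0148). In Δpwi1 the intron probe read 1.04 and 0.90, against -0.01 and -0.43 for the exon probe. With the exon probe in place of the junction, 4 of the 6 calls of mcp7 held, among them 2.20 on the arrays labelled Δsmd3 and 1.19 in Δpwi1. Those of Δaar2, at 1.28 (limma adjusted p = 0.0788), and of the label Δctr1, at 0.71 (adjusted p = 0.0981), were lost.

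The ratio of mdm35, whose product carries lipid transfer proteins in the mitochondrial intermembrane space, followed a similar order. It read 2.66 and 2.70 on the arrays labelled Δsmd3 and 2.66 and 2.19 under the label ΔSPAC18G6.13, against -0.12 and -0.03 in Δppn1 and -0.64 and -0.89 in Δssu72. The mean in Δssu72 was -0.76 ± 0.30 and did not pass the test (limma adjusted p = 0.256). Intron and junction moved in opposite directions under the label ΔSPAC18G6.13, where the intron rose by 1.12 ± 0.29 (adjusted p = 0.0106) and the junction fell by 1.30 ± 0.22 (adjusted p = 0.0107). The ratio call held with either array left out under the label Δsmd3 and was lost without replicate 1 under the label ΔSPAC18G6.13.

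The gene pcf11 encodes a cleavage and polyadenylation factor. Its ratio read 3.16 and 3.16 on the arrays labelled Δsmd3 and 2.19 and 1.63 under the label ΔSPAC18G6.13, against 0.31 and 0.95 in Δppn1 and -0.58 and -0.19 in Δssu72. Under the label Δctr1 it was called at 1.23 ± 0.42 (limma adjusted p = 0.0474). The replicates there read 2.55 and -0.09, so that leaving out replicate 1 turned the direction.

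The ribosomal protein gene rps502 had ratios of 2.72 and 3.76 on the arrays labelled Δsmd3. It read 1.52 and 1.58 in Δppn1, 1.74 and 1.32 in ΔSPAC20H4.06c, 0.80 and 0.66 in Δaar2 and 0.44 and 0.68 in Δpwi1. Both arrays labelled Δsmd3 lay above all others, and that call held with either of them left out, while those of Δppn1 and ΔSPAC20H4.06c were lost. A near-identical copy of such a gene could share its probes, and the probe sequences were not analysed here.

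**Figure D4:**
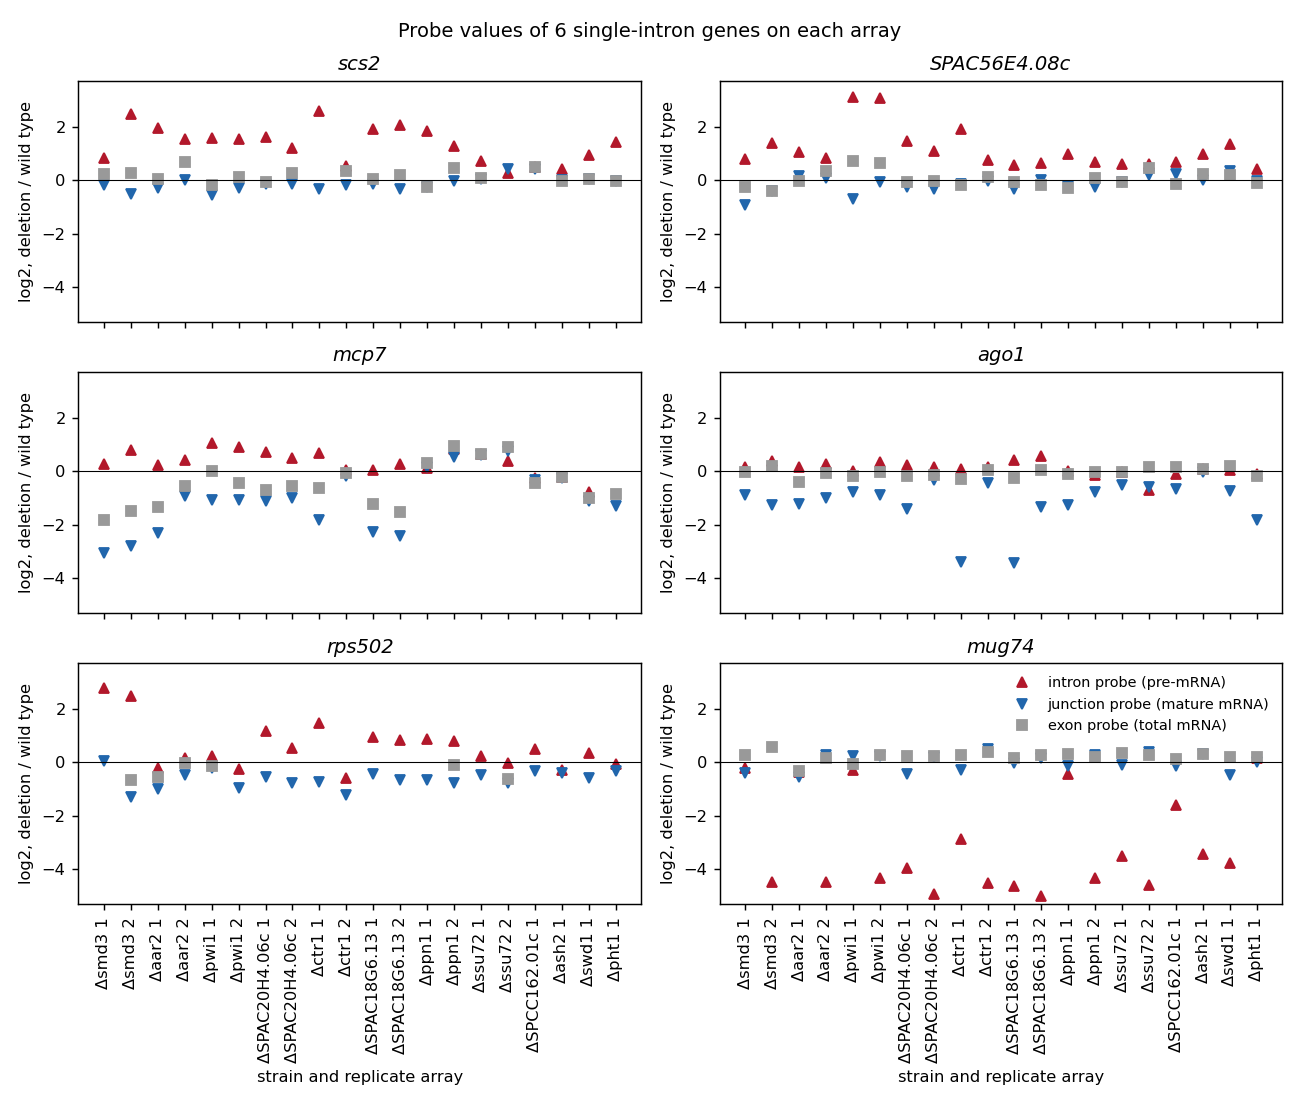
Log2 of deletion strain over wild type (y axis) for the intron probe (red, upward triangles), junction probe (blue, downward triangles) and exon probe (grey squares) of 6 single-intron genes on the 20 arrays (x axis, strain and replicate). The intron probe is the one that stands away from 0 for scs2, SPAC56E4.08c and mug74, and the junction probe for mcp7 and ago1.

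The Argonaute gene ago1, whose product is the core of RNA interference complexes, had the largest rise among the members under the label ΔSPAC18G6.13. Its ratio read 3.85 and 1.89 there and 3.49 and 0.61 under the label Δctr1, and rose by 2.87 ± 0.53 (SE, n = 2 arrays, limma adjusted p = 0.00172) and 2.05 ± 0.53 (adjusted p = 0.0243). The junction probe held this difference. It read -3.42 and -1.33 under the label ΔSPAC18G6.13 and -3.41 and -0.44 under the label Δctr1, while the exon probe stayed between -0.42 and 0.20 on all 20 arrays. With the exon probe as denominator the increase was 0.60 and 0.25 in these strains and did not pass the test. The ratio call held without replicate 2 in both strains and was lost without replicate 1.

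Similar low junction values on replicate 1 of the label Δctr1 occurred for other members that rose there. The junction of the chitin synthase gene chs1 read -2.17 on replicate 1 and -0.44 on replicate 2, that of SPBC8D2.16c -2.99 and -0.58, and that of nSPCC962.05 -2.58 and -0.52. Their ratios on replicate 1 were 3.18, 3.86 and 3.36, and on replicate 2 they were 0.69, 0.30 and 0.95. These 3 members were named for their large rises under this label. Replicate 1 was also the higher array for the members in the median, at 1.15 against 0.09, so the order of the arrays is not particular to these 3.

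In ΔSPAC20H4.06c the largest rises were those of rav1, pof9, leo1 and mcp7. The F-box gene pof9 read 2.15 and 1.44 there, against -0.31 and 0.40 on the arrays labelled Δsmd3, 0.12 and 0.35 in Δaar2 and 0.72 and 0.47 in Δssu72. Replicate 1 of the label Δctr1, at 1.62, lay above the lower of the ΔSPAC20H4.06c arrays, and replicate 2 read 0.33 (adjusted p = 0.0525 for the pair). The ratio of pof9 rose by 1.80 ± 0.34 in ΔSPAC20H4.06c (SE, n = 2 arrays, limma adjusted p = 0.00665), the only strain of 6 tested in which it was called, and the call was lost with either array left out. For leo1, a subunit gene of the Paf1 transcription elongation complex, the ratio read 1.81 and 1.5 in ΔSPAC20H4.06c, 0.99 and 1.91 under the label Δsmd3 and 1.16 and 0.83 under the label ΔSPAC18G6.13, and rose in all 3. It read 1.55 and -0.06 under the label Δctr1, 0.39 and 0.23 in Δaar2 and 0.07 and 0.46 in Δpwi1. The leo1 call held without replicate 1 of the label Δsmd3 and was lost with any other of these 6 arrays left out. Neither gene was measured on all 16 arrays, so that the difference between strains was not tested.

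In the array pair labelled Δsmd3, apt1 was called in that strain only. Its ratio read 1.94 and 4.27 there, against 1.19 and 0.70 in Δaar2 and 0.34 and 0.25 under the label Δctr1, while Δpwi1 gave -0.04 and 2.25. In Δppn1 the next largest rises after SPAC29A4.02c were those of rpl35, with 1.65 and 2.09, of rpc34, a subunit gene of RNA polymerase III, with 2.56 and 1.07, and of sod2, a superoxide dismutase gene, with 2.06 and 1.52. With 1 array left out, none of these 3 Δppn1 calls was kept. The Δppn1 replicates of rpc34 lay farther apart than those of the other 2.

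The ratio fell for 6 members in at least 1 strain. The largest of these changes was that of mug74, a gene upregulated in meiosis, in ΔSPAC20H4.06c and under the labels Δctr1 and ΔSPAC18G6.13. Its ratio read -3.50 and -5.12, -2.56 and -5.01, and -4.58 and -5.14 in these strains, with fitted means of -4.31 ± 1.12 (SE, n = 2 arrays, limma adjusted p = 0.0226), -3.78 ± 1.12 (adjusted p = 0.0335) and -4.86 ± 1.12 (adjusted p = 0.00563). With either array of a pair left out, each of these 3 calls was lost.

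The intron probe of mug74 was split within pairs. It read -0.38 and -4.46 in Δaar2, -0.30 and -4.32 in Δpwi1 and -0.43 and -4.30 in Δppn1, so that replicate 1 was near 0 and replicate 2 far below it. On the arrays labelled Δsmd3 it read -0.22 and -4.45. Its junction probe stayed between -0.53 and 0.49 and its exon probe between -0.30 and 0.57. The low values thus occurred on arrays of 11 strains, and Δpht1 was the exception, at 0.16.

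The other falls named here were smaller, and with 1 array of the pair left out a call was kept for rpc1 without replicate 2 of the label Δctr1 only. For rpc1, the gene of the largest RNA polymerase III subunit, the ratio read -1.69 and -1.08 under the label Δctr1 and fell by 1.39 ± 0.29 (SE, n = 2 arrays, limma adjusted p = 0.0205). For SPBPJ694.01 it read -1.08 and -0.81 in Δpwi1 and fell by 0.95 ± 0.28 (adjusted p = 0.0355). Its median over 20 arrays was -0.53, the lowest of the members with all ratios, and 3 of 20 arrays were above 0. For nSPAC23D3.17 it read -1.50 and -0.99 under the label ΔSPAC18G6.13 and fell by 1.24 ± 0.40 (adjusted p = 0.0294), with 1.05 and 0.84 in Δpwi1, which did not overlap with it.

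Among the members with a ratio on all 20 arrays, the nucleoporin gene nup189 had the narrowest range, between -0.22 and 0.21, and passed the test in none of 12 strains. Its intron, junction and exon values lay within -0.52 and 0.68 on every array. The next narrowest were the introns of snf21, apn2, dis2 and rad25, with ranges of 1.38 to 1.43. The ratio of dis2, a protein phosphatase gene, was above 0 on all 20 arrays, between 0.18 and 1.59, and rose under the labels Δsmd3 (0.95 ± 0.30, SE, n = 2 arrays, limma adjusted p = 0.0137) and Δctr1 (0.97 ± 0.30, adjusted p = 0.0371). That of rad25 rose under the labels Δsmd3 (1.15 ± 0.28, adjusted p = 0.00254) and ΔSPAC18G6.13 (0.79 ± 0.28, adjusted p = 0.0427). With 1 array left out, the calls under the label Δsmd3 and that of dis2 under the label Δctr1 held without replicate 2 only, and that of rad25 under the label ΔSPAC18G6.13 was lost. Snf21 and apn2 passed the test in none of 12 strains. Of the 78 members with all ratios, 13 were above 0 on every array and 72 had a median above 0. The same count is not given for other introns, whose median ratio was also above 0 on every array, at 0.10 on the lowest.

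By role, the ribosomal protein genes were the largest group of members, with 62. Their ratio rose for 25 of 32 tested on the arrays labelled Δsmd3, with a median of 1.52, against 64.9% and 1.11 for all members and 61.6% of all introns. It rose for 8 of 27 under the label ΔSPAC18G6.13 (28.4% of all introns), 6 of 24 under the label Δctr1 (23.0% of all), 6 of 24 in Δppn1 (14.7% of all), 3 of 27 in Δpwi1 (14.6% of all), 3 of 18 in ΔSPAC20H4.06c (16.9% of all), 2 of 38 in Δaar2 (3.67% of all) and 0 of 28 in Δssu72 (0.0% of all), and it fell for 0 in each. Total mRNA of these genes was below 0 in the median in every strain, between -0.71 in Δaar2 and -0.02 in Δpht1. Of the introns of other ribosomal protein genes, 12 of 15 rose on the arrays labelled Δsmd3 (61.6% of all introns), with a median of 1.73. Their median was also above that of the ribosomal members under the label Δctr1, at 0.81 against 0.78. It was below that of the ribosomal members in the other strains with a pair of arrays.

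The mitochondrial genes were the next largest list with 32 members, and 8 of 16 rose on the arrays labelled Δsmd3 (61.6% of all introns), with a median of 0.75, while 25 of 35 introns of other mitochondrial genes rose there with a median of 1.55. In Δppn1 2 of 9 members rose, against 11 of 23 other introns of that list and 14.7% of all introns. The mitochondrial ribosomal protein gene mrp5 gave 2.12 and 1.06 in Δppn1 and 2.02 and 0.95 under the label Δctr1. In both strains replicate 1 was the higher.

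Among the 28 meiotic genes only 5 could be tested on the arrays labelled Δsmd3, where mug74 had no ratio on replicate 2. All 5 rose, with a median of 1.56, where 61.6% of all introns rose. In ΔSPAC20H4.06c 1 of 2 rose and 1 fell, these being mcp7 and mug74 (16.9% and 0.116% of all). The gene mug121 had ratios of 2.27 and 2.23 on the arrays labelled Δsmd3 and 1.70 and 1.78 under the label ΔSPAC18G6.13. Its replicates lay close together in both.

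Of the 20 spliceosome genes, 3 of 6 tested rose on the arrays labelled Δsmd3 (61.6% of all introns), 1 of 3 in Δpwi1 (14.6% of all) and 1 of 2 in Δppn1 (14.7% of all). The snRNP protein gene msl1 read 2.14 and 3.07 and the splicing factor gene prp38 1.58 and 2.12 on the arrays labelled Δsmd3. For 11 proteasome and ubiquitin genes, 2 of 4 rose there (61.6% of all introns), and the proteasome subunit gene rpn9 read 2.91 and 2.42. The translation factor list held 7 members, of which sui1, a start codon selection factor, had a ratio above 0 on all 20 arrays, between 0.43 and 2.26, and rose in 4 strains.

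The remaining lists were small. Of 5 actin cytoskeleton genes 1 of 1 tested rose on the arrays labelled Δsmd3 (61.6% of all introns), and arc1 of the Arp2/3 complex read 1.75 and 0.92 in Δpwi1. Of 11 membrane traffic genes 2 of 4 rose under the label Δsmd3 with a median of 0.44, against 26 of 47 introns of other genes of that list with a median of 0.89. Among the members with a prefix, 42 were tested in at least 1 strain and 18 of these rose in at least 1, beside 34.6% of all members and 30.8% of all introns.

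Replicate arrays ranked the members alike to different degrees. Over the members measured on both arrays, and as a description across introns that share a hybridization, Pearson's r between replicates was 0.75 under the label ΔSPAC18G6.13 (387 members), 0.69 in ΔSPAC20H4.06c (219), 0.63 under the label Δsmd3 (430), 0.61 in Δpwi1 (371), 0.54 in Δaar2 (602), 0.54 in Δssu72 (328), 0.49 in Δppn1 (292) and 0.27 under the label Δctr1 (362). The ratio had 1 sign on both arrays for 87.9% of members under the label Δsmd3, against 86.8% of other introns, and for 61.3% under the label Δctr1, against 64.0%.

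Since dyes were not swapped, a difference in dye response of a probe cannot be told apart from a change common to all strains. When the mean over the other strains was subtracted from each strain, the ratio rose for 158 members on the arrays labelled Δsmd3, 9 under the label ΔSPAC18G6.13, 1 in Δpwi1 and 0 in the other strains with a pair of arrays. The share of all introns under that fit is not given here, so these counts do not compare members with other introns.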

How the data were processed

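The deposited values are log2 ratios with the deletion strain on top, 1 for each probe of an array, and both tables of them hold the same 304160 values. The table used held 15208 probes, of which 536 control spots were left out. How the authors corrected background, normalized, centred and emptied values is stated in no source used here. Empty values stayed missing.

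Members were taken from probe names, and members and gene lists were chosen with earlier results of these data known. Scale is log2 as deposited. For each intron, 4673 of which had a junction probe, the intron value minus the junction value was fitted with limma 3.58.1 in R 4.3.3. Each strain had its own mean over the 20 arrays, and the spread of an intron was shared by all strains. A strain with 1 array thus took its spread from the other strains. The wild type is the control channel of every array, so the test against 0 leaves out its own spread. Adjusted p under 0.05 was called, with Benjamini–Hochberg adjustment over all introns (or all junction or exon probes) measured on every array of the strain. The fit was tested on simulated data with changes put into known introns.

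Named were fet5, the 4 largest rises and 2 largest falls per strain with a pair of arrays and 2 each way per strain with 1 array, the 10 members that rose in most strains, the 5 lowest medians and 5 narrowest ranges among members with all ratios, and the 3 members with the highest mean ratio in each of 8 lists set by gene symbol. Alternatives were a replicate block, centring on exon probes, introns on all 20 arrays only, the exon probe as denominator, subtraction of the mean over other strains, 6 arrays of doubtful label left out, each array left out, trend and robust estimation, and the second table. Tables were handled with pandas 2.3.3 in Python 3.11.15.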

Additional observations from a re-analysis of the deposited data

Results flagged for a closer look

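The ratio of 5 named introns differed between the 8 strains with a pair of arrays by the limma F test, which compares the strain means with the spread between replicates. The adjusted p was 0.0018 for mdm35, 0.00409 for SPAC56E4.08c, 0.00545 for mcp7, 0.0138 for rps502 and 0.0158 for pcf11. The strain with the highest mean was Δpwi1 for SPAC56E4.08c and the array pair labelled Δsmd3 for the other 4.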

How the results depend on the processing

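The counts of members whose ratio rose moved most. With introns measured on all 20 arrays only, the count was 53 under the label Δsmd3, 29 under the label ΔSPAC18G6.13, 28 under the label Δctr1, 16 in Δpwi1, 11 in Δppn1 and 9 in ΔSPAC20H4.06c, where fewer introns are tested by construction. With the exon probe as denominator it was 81 under the label ΔSPAC18G6.13, 31 under the label Δctr1, 18 in Δppn1, 16 in ΔSPAC20H4.06c, 13 in Δpwi1 and 0 in Δaar2. After subtracting the mean over the other strains it was 158 under the label Δsmd3, 9 under the label ΔSPAC18G6.13, 1 in Δpwi1 and 0 in Δaar2, ΔSPAC20H4.06c, Δppn1 and the pair labelled Δctr1. With a replicate block it was 59 in Δpwi1, 50 in ΔSPAC20H4.06c, 45 in Δaar2 and 1 in Δssu72, and the differences between replicates 1 and 2 had correlations of 0.0474 to 0.633 over 28 pairs of strains, with a median of 0.32. All were above 0, which hints at a shared effect of the number, but the lowest was under 0.1 and no label names a shared batch, so the numbers were not taken as pairs. With trend and robust estimation it was 31 in Δppn1, 20 in Δpwi1, 19 in ΔSPAC20H4.06c, 1 in Δssu72, 1 in Δpht1 and 0 in Δaar2. Without the 6 arrays of doubtful label it was 271 under the label Δctr1, 144 in Δaar2, 110 in Δppn1, 104 in Δpwi1, 87 in ΔSPAC20H4.06c, 26 in Δssu72, 11 in Δpht1 and 7 in Δswd1. The cause was not tested, and the shares of all introns are not set beside these counts or beside those with 1 array left out.

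With 1 array left out the count ran between 192 and 259 under the label Δsmd3, 0 and 261 under the label Δctr1, 0 and 51 under the label ΔSPAC18G6.13, 0 and 11 in Δppn1 and 1 and 4 in Δpwi1, and was 0 in Δaar2, ΔSPAC20H4.06c and Δssu72. The count that fell ran between 0 and 17 under the label Δctr1 and 0 and 2 under the label Δsmd3, and was 0 in the others. The members' median minus that of other introns ran between 0.0907 and 0.2053 under the label ΔSPAC18G6.13, -0.0441 and 0.0757 in ΔSPAC20H4.06c, -0.0077 and 0.0187 in Δaar2, -0.0313 and 0.2147 under the label Δctr1, 0.0254 and 0.1206 in Δppn1, -0.0816 and 0.0025 in Δpwi1, 0.1505 and 0.1564 under the label Δsmd3 and 0.0017 and 0.0402 in Δssu72.

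That difference also moved with introns on all 20 arrays only, to 0.064 under the label ΔSPAC18G6.13, -0.0638 in ΔSPAC20H4.06c, -0.0159 in Δash2, 0.0453 in Δpht1, 0.0379 in Δppn1, -0.1724 in Δpwi1, -0.0255 under the label Δsmd3 and 0.0596 in Δssu72. With the exon probe as denominator it was 0.0216 in Δaar2, 0.0551 in Δpht1, 0.0581 under the label Δsmd3, 0.0357 in Δssu72 and 0.0907 in Δswd1. After subtracting the mean over the other strains it was -0.0586 in Δaar2, 0.0443 in Δpht1, -0.1066 in Δpwi1, 0.0888 under the label Δsmd3 and -0.0954 in Δssu72.

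Of the named calls, 1 turned in sign after subtracting the mean over the other strains, SPAC56E4.08c in Δppn1 at -0.1107, and 1 with an array left out, pcf11 under the label Δctr1 at -0.0925 without replicate 1, against 2.5516 without replicate 2. Of 136 named calls, 114 were lost after subtracting the mean over the other strains and 28 with trend and robust estimation. With the exon probe as denominator 43 of 116 were lost, and of 272 calls with 1 array left out 181 were lost. Centring cancels within an array, and the second table holds the same values. Classes of intron length, splice sites and branch motif, and a check of the members against annotated exons, were not run.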
